A study of Mus musculus with 4 samples.

Results

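The genes described here are the transcription factor CREB and its relatives CREM and CREB-H, the coactivators of CREB, and the SIK kinases that restrain some of those coactivators: Creb1, Crem, Creb3l3, Crtc1, Crtc2, Crtc3, Crebbp, Ep300, Sik1 and Sik2. They were found by gene name among the spots of the array that are not controls, which gave 10 genes of 31829 named on the array and 16 probes of 39429. Each liver came from a separate male mouse of the C57BL/6J strain, 8 to 12 weeks old, and total RNA was measured. In the fasted group (n = 4) food was withheld for 24 h, and in the refed group (n = 4) the same fast was followed by 2 h with food. Each of 4 two-colour arrays carried the RNA of 1 fasted and 1 refed liver, paired at random, with the fasted liver in Cy5 on replicates 1 and 2 and in Cy3 on replicates 3 and 4. All mice had therefore been fasted, no group was fed throughout, and no gene was altered in either group. Every ratio below is the log2 of the fasted over the refed signal of a probe.

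In the fasted liver, glucagon raises cAMP and activates protein kinase A, which phosphorylates CREB at its binding sites, the cAMP response elements (CREs). CREB then recruits the histone acetyltransferases CBP (Crebbp) and p300 (Ep300). The CRTC coactivators are kept in the cytoplasm by salt-inducible kinases (SIKs) and enter the nucleus when protein kinase A inhibits those kinases; CRTC2 is the form best known in liver. CREB-H (Creb3l3) is a liver factor that sits in the membrane of the endoplasmic reticulum until proteases release it. Much of this control acts on proteins, whereas the arrays measured transcripts.

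The probes that carry the results are 60-base oligonucleotides, printed here from the deposited array files, with coordinates in the mm9 build. Capitals mark stretches of 15 or more bases that also occur, on either strand, in a probe for another gene on the array. Crtc2 is shown with both probes because their ratios differed, and Crebbp because most of its probe is a repeat. Where each probe lies relative to exons and UTRs was not analysed here.
Sik1, chr17:31981255-31981314, minus strand: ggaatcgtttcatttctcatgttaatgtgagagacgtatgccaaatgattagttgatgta
Crtc2, brighter probe, chr3:90067950-90068009, plus strand: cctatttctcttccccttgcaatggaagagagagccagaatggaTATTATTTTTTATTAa
Crtc2, dimmer probe, chr3:90066577-90066636, plus strand: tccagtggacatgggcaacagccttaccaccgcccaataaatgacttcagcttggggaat
Creb3l3, chr10:80547080-80547139, minus strand: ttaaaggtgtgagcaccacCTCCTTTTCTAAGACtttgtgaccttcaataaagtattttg
Crebbp, chr16:4084710-4084769, minus strand: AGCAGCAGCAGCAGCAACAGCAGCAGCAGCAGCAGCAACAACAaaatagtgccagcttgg
Sik2, kept probe, chr9:50700917-50700976, minus strand: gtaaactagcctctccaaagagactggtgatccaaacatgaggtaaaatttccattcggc

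The Crebbp probe holds an unbroken run of 42 bases of CAG and CAA triplets and shares a stretch with 12 probes of other genes. Probes with at least 10 such triplets in a row are rare on the array, at 2 of 39429. The Crebbp signal may therefore include other transcripts with the same repeat, and its ratio is uncertain. The Sik1 probe, both Crtc2 probes, the Creb3l3 probe and the Sik2 probes shared such a stretch with at most 1 probe of another gene. A second Sik2 probe spans chr9:50743671-50803760, far more than its 60 bases, and so lies across a splice junction.

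Hepatocyte markers were well above background in all 8 livers for 8 of 8 genes, and their mean ratios were 0.39, 0.60, 0.13 and 0.04 on replicates 1 to 4; Tat, a target gene described further on, is one of the 8. Of the adipose markers, 2 of 3 were above background in none, and Adipoq was so in 1 liver, the refed one of replicate 3, with a ratio of -0.36 there. The refed liver of replicate 3 stood apart: 10 of 10 pancreatic acinar markers were well above background in it, with ratios from -5.60 to -1.23, while their mean ratio was 0.04, -0.05 and 0.01 on replicates 1, 2 and 4. Of those 10, 4 genes were kept, and the mean log2 signal of these lay between 7.69 and 8.34 in the fasted livers and between 7.63 and 11.6 in the refed ones. Blood markers (3 of 3 above background in all livers) had mean ratios of 1.73, -0.27, 1.99 and 0.20 on replicates 1 to 4, with mean log2 signals of 12.7 to 14.4 in fasted and 11.8 to 12.9 in refed livers. The part of any of these in the ratios below was not tested, and values without replicate 3 are given for the counts, for Crtc2, Sik1 and Creb3l3, for the differences between members and for the called genes of the lists. Median spot signals were 40 to 96 against median local backgrounds of 20 to 35, so the number of arrays and the dim signals limit the precision. In bulk liver, fewer cells of a type and less RNA per cell cannot be told apart.

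Of the 16 probes, 13 were kept, at least 1 for each of the 10 genes, because they were well above background on all 4 arrays in at least 1 condition. Calls required that limma's adjusted p was under 0.10 and that the fold was 1.5 or more, and no kept probe passed both limits: 0 of 13 were called higher in fasted liver and 0 of 13 lower, against 1.7% and 2.08% of all 19721 kept probes. In limma 3 of 13 had an unadjusted p under 0.05, those of Crtc2, Sik1 and Creb3l3, against 21.6% of all kept probes. SAM, the test named by the study, was rewritten here and run on the same ratios and kept probes as limma. It called 1 of 13 higher, Sik1, against 1.89% of all kept probes. At any fold, 1 of 13 had an adjusted p under 0.10, against 10.9% of all kept probes. The median ratio of the 13 was -0.006, with 6 above 0 and 7 below, and the median of all kept probes was -0.001. The median size of the ratio, without its sign, was 0.11 for the members and 0.11 for all kept probes. Without replicate 3 the counts were again 0 and 0.

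**Figure D1:**
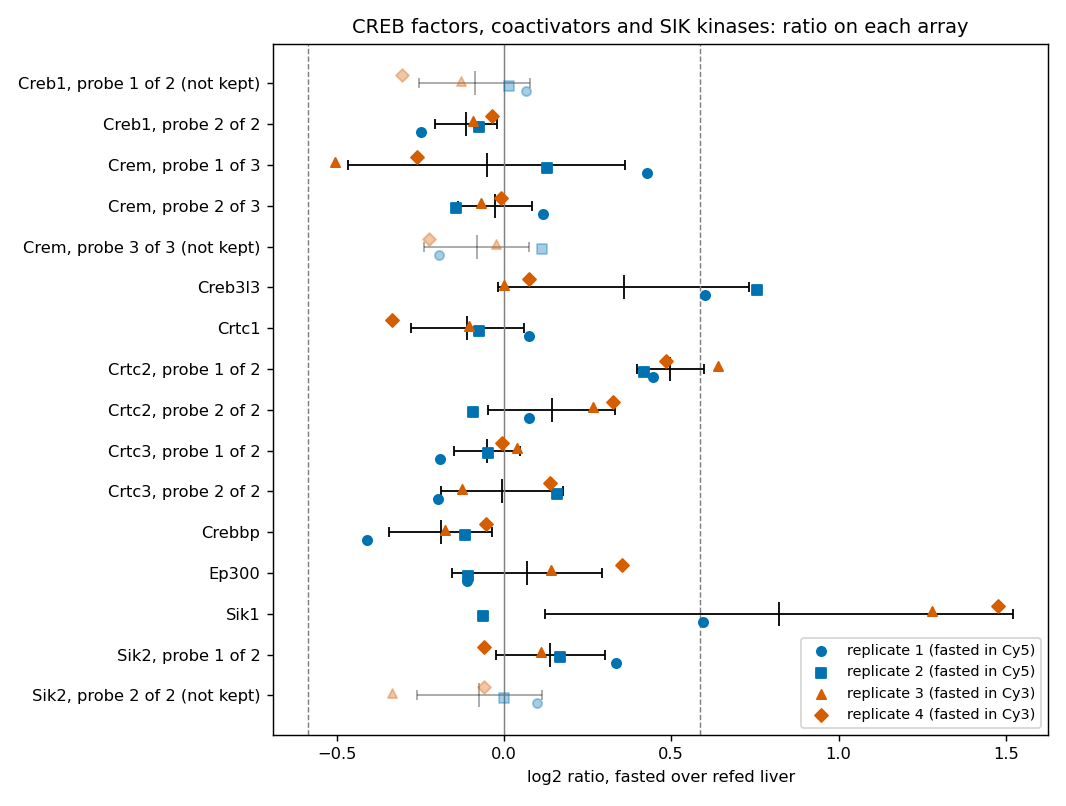
Log2 ratio of fasted over refed liver on each of the 4 arrays for all 16 probes. Points are arrays, coloured by the dye of the fasted liver, the bar gives the mean with 1 SD, dashed lines mark 1.5-fold, and pale rows are the 3 probes that were not kept. Sik1 spreads from -0.06 to 1.48, the brighter Crtc2 probe stays between 0.42 and 0.64, and most other probes lie around 0.

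Creb1 itself, the factor that binds the CRE, was dim and differed little. Its kept probe had log2 signals of 6.22, 6.32, 6.37 and 6.38 in the fasted livers of replicates 1 to 4 and of 6.47, 6.40, 6.47 and 6.42 in the refed ones. The refed livers were higher on 4 of 4 arrays and the groups did not overlap, but the probe was well above background in 2 of 4 fasted livers. The ratio was -0.11 ± 0.09 (SD, n = 4; limma adjusted p = 0.449). The ratio of this probe was -0.46 with plain subtraction of the background and -0.60 with the scanner software's processed signals. Non-overlapping signals were found for 2 of 13 member probes, this one and Creb3l3, and for 13.6% of all kept probes. Both gaps were narrow. For Creb1 the highest fasted signal was 6.381 and the lowest refed one 6.396, and the probe was kept through the refed livers alone. For Creb3l3 the lowest fasted signal was 14.341 and the highest refed one 14.340. The other Creb1 probe was well above background in 1 of 8 livers and was not tested.

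Crem, which encodes activators and the short repressor ICER, did not differ beyond the spread of the arrays. Its brighter probe had ratios of 0.12, -0.14, -0.07 and -0.01, a mean of -0.03 ± 0.11 (SD, n = 4). The second kept probe had ratios of 0.43, 0.13, -0.50 and -0.26, so the arrays with the fasted liver in Cy5 were above 0 and those with it in Cy3 below. Another probe was not well above background in any liver. Which Crem transcripts each probe matches was not analysed here.

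Creb3l3, which encodes the liver factor CREB-H, was split by dye in the same way. Its log2 signals were 14.84, 14.87, 14.34 and 14.41 in the fasted livers of replicates 1 to 4 and 14.25, 14.12, 14.34 and 14.34 in the refed ones. Ratios of 0.60 and 0.76 on the arrays with the fasted liver in Cy5 stood against 0.00 and 0.07 on the other 2. The mean ratio of the hepatocyte markers was likewise higher on the first pair, at 0.39 and 0.60, than on the second, at 0.13 and 0.04, and its part in the Creb3l3 ratio was not tested. The mean was 0.36 ± 0.38 (SD, n = 4), 1.28-fold (limma adjusted p = 0.223). With a dye term in the model the adjusted p was 0.0141 and the change remained under 1.5-fold. Without replicate 3 the ratio was 0.48, without replicate 2 it was 0.22 (adjusted p 0.475), and median centring in place of loess gave 0.20.

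Crtc2, the coactivator best known in liver gluconeogenesis, was the member with an adjusted p under 0.10. The brighter probe had log2 signals of 9.85, 9.37, 9.71 and 9.77 in the fasted livers of replicates 1 to 4. In the refed livers of the same arrays they were 9.41, 8.95, 9.07 and 9.28. The fasted liver was higher on 4 of 4 arrays, although the 2 groups overlapped when the livers were taken one by one. The ratios were 0.44, 0.42, 0.64 and 0.49, a mean of 0.50 ± 0.10 (SD, n = 4). This is 1.41-fold (95% interval 1.25 to 1.6; limma adjusted p = 0.0204), so Crtc2 passed the limit on p and missed the limit on fold. Without replicate 3 the ratio was 0.45 and the adjusted p 0.106, which does not pass. With normexp on all spots the ratio was 0.26 and the limma adjusted p 0.559, which does not pass either.

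The dimmer Crtc2 probe, which lies upstream of the brighter one in the same gene, had ratios of 0.07, -0.09, 0.27 and 0.33, a mean of 0.14 ± 0.19 (SD, n = 4; limma adjusted p = 0.446). It was well above background in 4 fasted and 3 refed livers. The brighter probe had the higher ratio on 4 of 4 arrays, by 0.16 to 0.51. The dimmer probe had 0.33 with plain subtraction, 0.39 with the processed signals and -0.0017 with normexp on all spots. The brighter probe had 0.55, 0.61 and 0.26 under the same settings, above the dimmer one in each. The size of the gap between the probes thus depends on the processing.

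The other CRTC coactivators stayed near 0. Crtc1, whose protein is best known in the brain, had ratios of 0.07, -0.07, -0.10 and -0.33, a mean of -0.11 ± 0.17 (SD, n = 4). The brighter Crtc3 probe had ratios of -0.19, -0.05, 0.04 and -0.01, a mean of -0.05 ± 0.10 (SD, n = 4), and the dimmer one a mean of -0.01 ± 0.18. Crtc2 had the higher ratio on 4 of 4 arrays against both. The difference was 0.61 ± 0.21 from Crtc1 and 0.55 ± 0.08 from Crtc3 (SD, n = 4). In an exact sign-flip test, two-sided, both were as large in 2 of 16 flips, the fewest that 4 arrays allow. The exact p was 0.208 after Benjamini-Hochberg adjustment over 5 pairs of members, so neither could pass. Without replicate 3 the differences were 0.56 and 0.53, and with normexp on all spots they were 0.26 and 0.31.

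The acetyltransferases differed little. Crebbp, which encodes CBP, had ratios of -0.41, -0.12, -0.18 and -0.05, below 0 on 4 of 4 arrays, with a mean of -0.19 ± 0.15 (SD, n = 4; limma adjusted p = 0.270). Ep300, which encodes p300, had -0.11 and -0.11 on replicates 1 and 2 and 0.14 and 0.35 on replicates 3 and 4, a mean of 0.07 ± 0.22. The ratio of Crebbp was lower than that of Ep300 on 4 of 4 arrays, by 0.26 ± 0.17 (as large in 2 of 16 sign flips, exact p adjusted over the pairs 0.208). Without replicate 3 the difference was -0.24, and with normexp on all spots it was -0.08. The repeat in the Crebbp probe applies to this difference too.

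**Figure D2:**
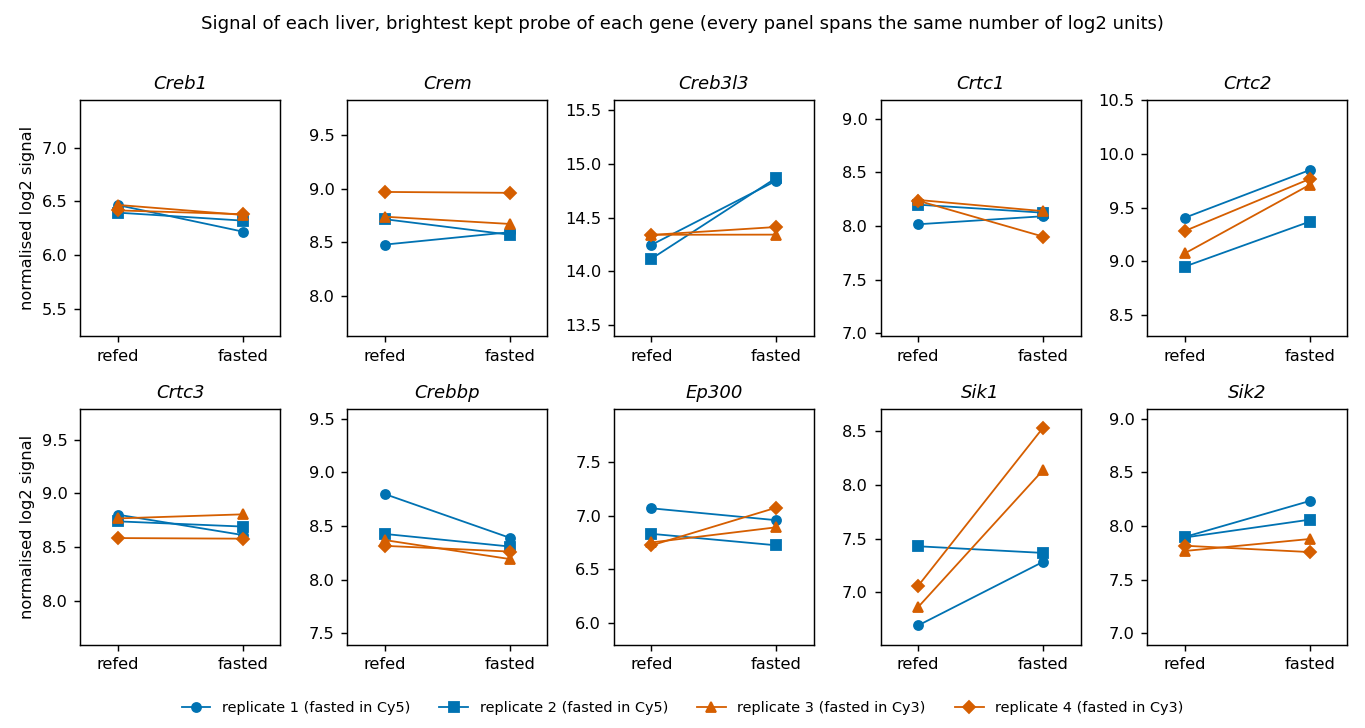
Normalised log2 signal of the refed and the fasted liver of each array, for the brightest kept probe of each gene; lines join the livers of 1 array, and colours give the dye of the fasted liver. All 4 lines climb for Crtc2, 3 climb for Sik1, and the Creb3l3 lines are steep on the 2 arrays with the fasted liver in Cy5 and nearly flat on the others. Levels are not comparable between panels.

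Sik1, the inducible member of its kinase family and a known CREB target, had the largest ratio and the largest spread. Its log2 signals were 7.28, 7.37, 8.14 and 8.54 in the fasted livers of replicates 1 to 4 and 6.69, 7.43, 6.86 and 7.06 in the refed ones. The fasted livers of replicates 3 and 4 lay above every refed liver, whereas the pair of replicate 2 did not differ in that direction. The ratios were 0.59, -0.06, 1.28 and 1.48, a mean of 0.82 ± 0.70 (SD, n = 4). This is 1.77-fold (95% interval 1.16 to 2.68; limma adjusted p = 0.120), so Sik1 passed the limit on fold and missed that on p.

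The Sik1 ratio also followed the dye orientation, with a mean of 0.27 where the fasted liver was in Cy5 and 1.38 where it was in Cy3. That split runs opposite to that of Creb3l3. A dye effect (limma, adjusted p under 0.10) was found for 3 of 13 member probes (Sik1, Creb3l3 and 1 of Crem) and for 14.8% of all kept probes. Each orientation holds 2 pairs of livers. With a dye term the adjusted p of Sik1 was 0.00794 and the probe was called higher. Without replicate 3 the ratio was 0.67 and the adjusted p 0.338, and without replicate 2 they were 1.12 and 0.0701, which passes both limits.

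Sik2, a relative of Sik1 that is present without induction, had ratios of 0.34, 0.17, 0.11 and -0.06, a mean of 0.14 ± 0.16 (SD, n = 4). Its probe across the junction was well above background in 1 fasted and 3 refed livers and was not tested. Sik1 exceeded Sik2 on 3 of 4 arrays, by 0.68 ± 0.81 (exact p = 0.25, adjusted 0.312). The difference was 0.52 without replicate 3, 0.40 without replicate 4 and 0.99 without replicate 2, and it was 0.03 with normexp on all spots. Of the 5 pairs, the remaining one, Creb1 against Crem, differed by -0.09 ± 0.19 (exact p = 0.625), and by -0.11 without replicate 3.

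**Figure D3:**
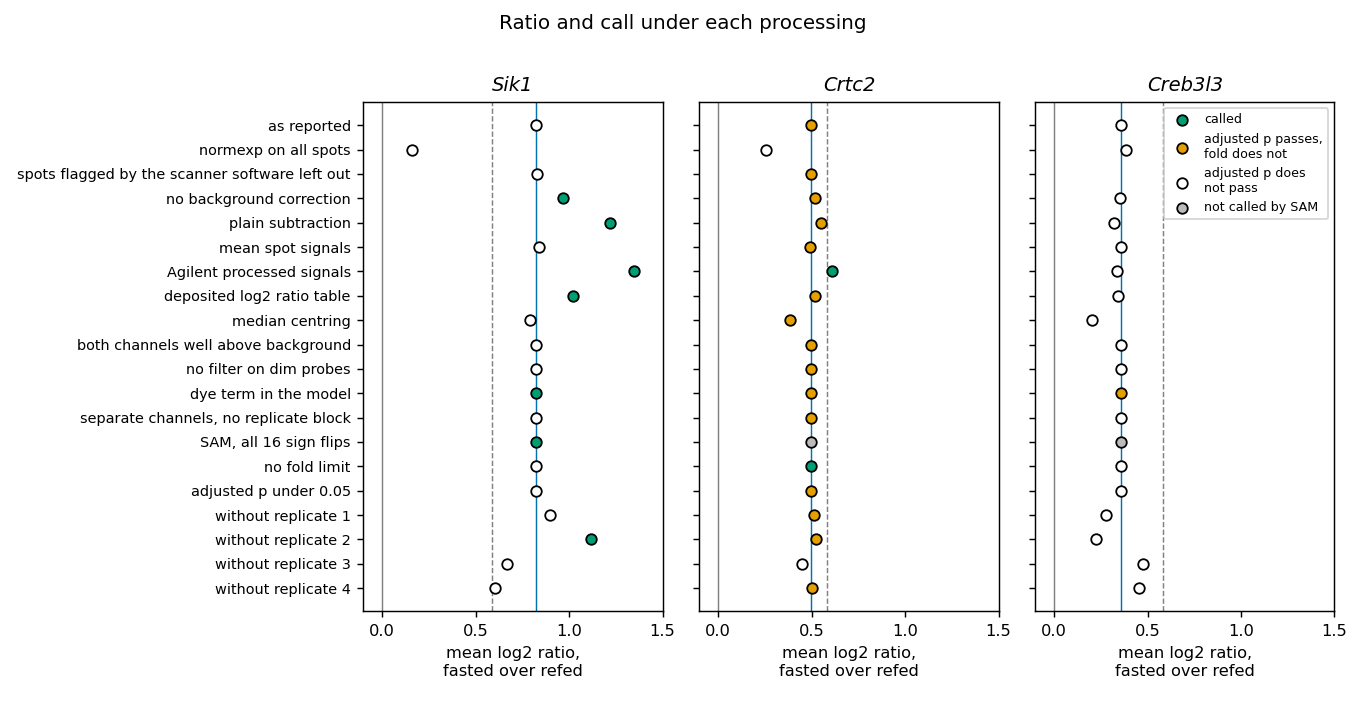
Mean log2 ratio of Sik1, Crtc2 and Creb3l3 (brightest kept probe) as reported and under 19 other settings; fill gives the outcome, the dashed line marks 1.5-fold and the solid blue line the reported value. Sik1 was called under 7 settings, with ratios from 0.16 to 1.35, and Crtc2 under 2, with ratios from 0.26 to 0.61. Creb3l3 was never called.

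The Sik1 ratio moved with the background step, from 0.16 with normexp on all spots to 1.22 with plain subtraction. The scanner software's processed signals, which differ in more than the background, gave 1.35. Settings that changed only the filter, model, test or limits left the ratios of Sik1, Crtc2 (brighter probe) and Creb3l3 as reported, so their sign could not change there. The settings that changed these ratios kept them above 0, where they were tested. Crtc2 was called with the processed signals, at 0.61, and with no fold limit.

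Sik3, the remaining kinase of the family, is not among the 10 genes but belongs to a list of regulators of CRTC and SIK proteins, and it rose in fasted liver. Its brightest probe had ratios of 0.78, 0.92, 0.49 and 0.84, a mean of 0.76 ± 0.19 (SD, n = 4; limma adjusted p = 0.0131), and was called higher. A second probe was called at 0.75 ± 0.24. Both called probes overlap over most of their bases, at chr9:46032215-46032274 and chr9:46032210-46032269, so they are not separate sites. The last probe, at chr9:46029257-46029316, had 0.40 ± 0.05 (limma adjusted p = 0.0292) and missed the fold limit. All 3 probes were above 0 on 4 of 4 arrays. Both calls held without replicate 3, at 0.85 and 0.74, and were lost with normexp on all spots.

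Promoters were searched for the CRE, the site that CREB binds. The full CRE, TGACGTCA, and its short form, TGACG, were looked for as exact matches on both strands; every full CRE also holds the short form. In RefSeq windows of GRCm38.p6, 250 bases before to 50 after each start, 1.79% of 32851 windows held the full form and 20.8% the short one. For 7 members 8 windows were searched, of which 0 held the full form and 2 the short one, those of Sik2 and Creb3l3. When 1 mismatch to the full form was allowed, a definition added after the values were seen, 12.5% of all windows and 1 of the 8 held it, that of Sik2, as did the window of Sik3. The windows of Sik2 and Sik3 follow, with the short form in capitals.
Sik2, chr9:51009024-51009323, minus strand: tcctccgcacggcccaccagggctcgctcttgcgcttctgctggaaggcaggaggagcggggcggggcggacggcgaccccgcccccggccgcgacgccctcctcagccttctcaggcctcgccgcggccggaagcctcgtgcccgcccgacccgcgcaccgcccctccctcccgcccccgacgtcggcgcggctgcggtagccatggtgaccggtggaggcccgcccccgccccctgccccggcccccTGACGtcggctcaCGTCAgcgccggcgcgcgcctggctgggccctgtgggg
Sik3, chr9:46012570-46012869, plus strand: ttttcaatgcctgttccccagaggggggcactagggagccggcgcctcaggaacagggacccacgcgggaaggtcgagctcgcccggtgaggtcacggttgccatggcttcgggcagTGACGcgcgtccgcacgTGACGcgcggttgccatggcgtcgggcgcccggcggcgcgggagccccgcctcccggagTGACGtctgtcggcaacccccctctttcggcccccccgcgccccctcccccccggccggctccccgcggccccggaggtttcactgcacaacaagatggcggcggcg

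Sik3 held 3 copies of the short form and Sik2 held 2. A match of letters is a description and no evidence of binding. The promoters of Sik1, Crtc2 and Crem were not searched here.

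Around the members, 4 lists of the pathway were examined. Of 103 kept probes in all 4 lists, 11 were called higher and 0 lower, against 1.7% and 2.08% of all kept probes. The lists were chosen with results of these data known, so their counts are no independent evidence. By the brightest probe of each gene, the median ratio was 0.02 for the members and 0.0033 for all 16085 genes with a kept probe.

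Upstream of CREB, among cAMP and protein kinase A signalling, 0 of 23 kept probes were called and the median over 18 genes was 0.01. The largest ratio was that of the adenylyl cyclase Adcy9, at 0.57 ± 0.16 (SD, n = 4; limma adjusted p = 0.0215), just under 1.5-fold; it was called without replicate 3 (0.62) and without replicate 4 (0.60). The inhibitor of protein kinase A Pkib had -0.43 ± 0.18 (adjusted p 0.0488) and the cyclase Adcy6 0.35 ± 0.24 (adjusted p 0.115). The glucagon receptor Gcgr had 0.16 ± 0.31. At any fold, 3 of the 23 probes had an adjusted p under 0.10, against 10.9% of all kept probes. The same count was 6 of 39 for the regulators of CRTC and SIK proteins, 2 of 23 for the other CREB and ATF factors and 10 of 18 for the targets.

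Among regulators of CRTC and SIK proteins, 2 of 39 kept probes were called, the overlapping pair of Sik3, and the median over 27 genes was 0.003. The next largest were the acetyltransferase Kat2b at 0.46 ± 0.41 (adjusted p 0.151), the deacetylase Sirt1 at 0.46 ± 0.14 (adjusted p 0.0323) and the calcineurin subunit Ppp3ca at 0.33 ± 0.04 (adjusted p 0.0463), all below 1.5-fold. Kat2b was called higher without replicate 1 (0.64, adjusted p 0.0505) and had 0.31 without replicate 4. The kinase Stk11, also called LKB1, which activates SIKs, had 0.07 ± 0.10, and the ubiquitin ligase Rfwd2, also called COP1, which targets CRTC2, had 0.003 ± 0.08.

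Other factors of the CREB and ATF families gave 0 of 23 kept probes called, with a median of -0.06 over 15 genes. Creb3l2 had -0.38 ± 0.14 (adjusted p 0.0521), Atf4 -0.36 ± 0.28 (adjusted p 0.137) and Creb5 0.36 ± 0.91 (adjusted p 0.599). Creb5 followed the dye orientation, with 1.3 and 0.97 on replicates 1 and 2 and -0.41 and -0.43 on replicates 3 and 4. The protease Mbtps1, which releases CREB-H, had 0.10 ± 0.14.

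Downstream, 9 of 18 kept probes for known targets of CREB and CREB-H were called higher, 1 for each of 9 genes, and 0 lower, with a median of 0.98 over 16 genes. They were the gluconeogenic enzymes G6pc (3.60 ± 0.37) and Pck1 (2.66 ± 0.71), the phosphatase Dusp1 (1.5 ± 0.68), the transcription factor Cebpb (1.40 ± 0.43), the insulin receptor substrate Irs2 (1.35 ± 0.40), the nuclear receptor Nr4a1 (1.22 ± 0.77), the coactivator Ppargc1a (1.20 ± 0.16), the hormone Fgf21 (1.11 ± 0.69) and the amino acid enzyme Tat (0.84 ± 0.46). A second Ppargc1a probe, at 0.45 ± 0.18, was not called. Of the 19 target genes listed, Fos, Nr4a2 and Nr4a3 had no kept probe and were not tested. Without replicate 3, 5 of the 9 target probes remained called, those of G6pc (3.74), Pck1 (2.79), Cebpb (1.40), Irs2 (1.40) and Ppargc1a (1.19). The ratios of the other 4 stayed above 0 but missed the limit on p: Dusp1 had 1.49 (limma adjusted p 0.101), Nr4a1 1.15 (0.192), Fgf21 1.19 (0.152) and Tat 0.91 (0.122). Tat also lost its call without replicate 1 (adjusted p 0.104), without replicate 2 (0.142), with median centring (0.112) and with the processed signals (0.104), and was called under 12 of 18 other settings. The Nr4a1 call did not hold at an adjusted p under 0.05. Both ratios differed by dye orientation: Tat had a mean of 1.22 with the fasted liver in Cy5 and 0.46 with it in Cy3 (dye effect, limma adjusted p 0.0472), and Nr4a1 had 0.61 and 1.82 (0.0543). With normexp on all spots the 9 target ratios stayed above 0, and G6pc alone of the 9 remained called (3.33, limma adjusted p 0.0735).

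Of the genes best known as targets of CREB-H, Fgf21 was called, with a limma adjusted p of 0.0559, and others were not. The Fgf21 call was lost without replicate 3, without replicate 2 (adjusted p 0.169), with normexp on all spots and at an adjusted p under 0.05. Apoa4 had 0.10 ± 1.39 and Apoc2 0.16 ± 0.42, both apolipoproteins. The lipid droplet gene Cidec had 0.45 ± 1.22, with 2.26 on replicate 2 and -0.31 to 0.09 on the rest. The hormone Hamp had 0.23 ± 0.21, and the acute-phase genes Crp and Apcs had -0.17 ± 0.13 and -0.45 ± 0.52. The clock gene Per1 had 0.40 ± 0.67 (adjusted p 0.404). Without replicate 3, 8 of the 103 list probes were called higher and 0 lower. Of these, 7 were also called with all 4 arrays, the 5 targets and both Sik3 probes, and the remaining one was Adcy9, at 0.62.

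**Figure D4:**
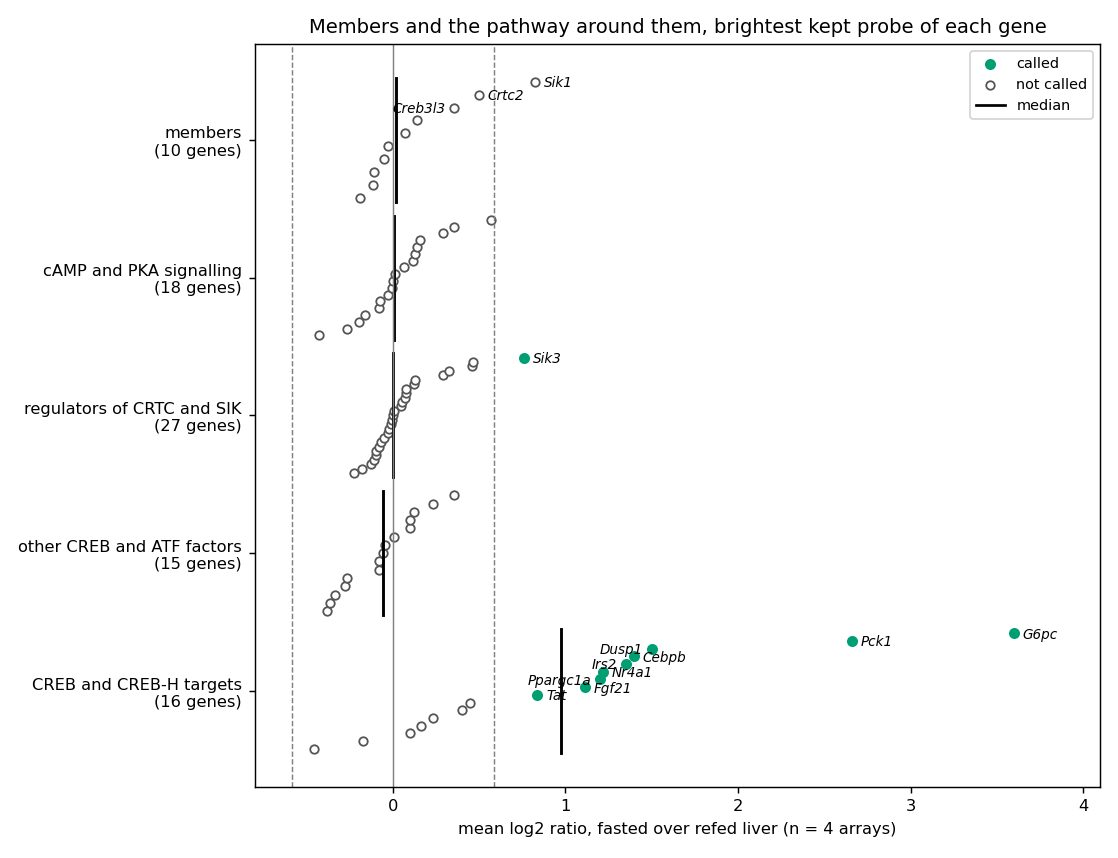
Mean log2 ratio (n = 4 arrays) of the brightest kept probe of each gene, for the 10 members and the 4 lists. Filled points were called, black bars are medians and dashed lines mark 1.5-fold. Filled points appear for Sik3 and for 9 target genes; the medians are 0.02 for the members and 0.98 for the targets.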

How the data were processed

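RNA of 4 fasted and 4 refed livers (200 ng each) was compared on 4 dye-swapped Agilent arrays. The authors deposited raw spot intensity from Feature Extraction, version 10.10.1.1 per the file headers, and a log2 ratio table that the authors normalised within arrays by loess in limma. Its rows matched spots by row number (correlation with the ratios computed here 0.965 to 0.986) and already run as fasted over refed.

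Median signals were processed in R 4.3.3 using limma 3.58.1. Spots with a local background over 3 times the array median were left out, normexp (offset 50) and loess were applied, outlier spots were dropped and spots of a probe were averaged; no member spot was left out or saturated. Kept probes were well above background on all 4 arrays in at least 1 condition. The 4 ratios of a probe were tested by lmFit and eBayes (two-sided), and p-values were adjusted over kept probes by Benjamini-Hochberg. The offset draws the ratios of dim probes toward 0. Signals per liver were scaled between arrays by Aquantile. Arrays shared 1 slide and scan, and each liver was a separate mouse.

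Members, every gene called in a list and up to 3 others per list with the largest ratio are named, with further list genes added for their role after values were seen. The members, the lists and this processing were chosen with earlier results of these data known. The code was tested on simulated data. Alternatives covered background, signal source, normalisation, filter, model, test, limits and each replicate left out.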

Additional observations from a re-analysis of the deposited data

How the results depend on the processing

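The count of member probes called higher, 0, became 1 with no background correction, plain subtraction, the deposited log2 ratio table, a dye term or SAM (Sik1 in each), 1 with no fold limit (Crtc2) and 2 with Agilent's processed signals (both). Leaving out 1 replicate gave 0 to 1, the 1 being Sik1 without replicate 2. No member probe was called lower under any alternative run. List probes called higher, 11, became 1 with normexp on all spots and 18 with no fold limit, and 8 to 12 without 1 replicate. List probes called lower, 0, became 2 with plain subtraction, 2 with processed signals, 1 with the deposited table and 3 with no fold limit, and 0 to 0 without 1 replicate.

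Ratios near 0 changed sign. Normexp on all spots gave 0.13 for the dimmer Crem probe, -0.0017 for the dimmer Crtc2 probe and -0.052 for Ep300. Processed signals gave 0.00049 and 0.014 for the Crem probes. Without 1 replicate, the dimmer Crem probe ran from -0.21 (replicate 1 left out) to 0.099 (replicate 3), the brighter one from -0.074 (replicate 1) to 0.013 (replicate 2), the dimmer Crtc3 probe from -0.061 (replicate 2) to 0.058 (replicate 1), and Ep300 from -0.026 (replicate 4) to 0.13 (replicate 1). The difference of Creb1 from Crem turned to 0.027 with median centring and ran from -0.14 to 0.0057 without 1 replicate, turning without replicate 1. The untested Creb1 probe moved to -0.65 with processed signals. The cause was not tested.

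Over all probes, 335 were called higher and 410 lower. The counts were 5 and 15 with normexp on all spots, 550 and 714 with plain subtraction, 685 and 904 with processed signals, 935 and 1208 with no fold limit, and 208 and 256 without replicate 3. Median centring gave 230 and 635, a share of 26.6% higher against 45%. Each ratio pairs the 2 livers of an array, so the reported test was itself paired; with separate channels and no replicate block, 0 member probes were called higher and 0 lower. Low signals limit the precision of the dim probes.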

Other observations

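For the 2 members with the lowest adjusted p, the genes most alike across the 8 liver signals were listed as a description, over the brightest kept probe of 16084 other genes; the signals of 1 array share its effects. For Crtc2 these were Slc35b3 (Pearson r = 0.99), Ndufa1 (0.98) and Lmbr1l (0.98). For Sik1 they were the transcript named ENSMUST00000074481 (0.98), Ndnl2 (0.96) and Fetub (0.96). The log2 ratio of these genes ran from 0.09 for Ndufa1 to 0.87 for Lmbr1l.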
